A study of Mus musculus with 17 samples.

Results

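The 7 insulin-like growth factor (IGF) binding proteins, Igfbp1 to Igfbp7, and 3 genes of the insulin pathway, the insulin receptor substrates Irs1 and Irs2 and the transcription factor Foxo1, were followed in mouse liver and liver tumor. The members were chosen by gene symbol, and all 10 were present in both gene tables, among 19151 genes in the high-fat diet (HFD) table and 24233 in the Western-type diet (WD, high-fat and high-cholesterol) table. Bulk RNA-Seq came from 17 libraries in 5 groups, all from mice kept on their diet for 16 weeks: HFD WT liver (n = 4), HFD N-LKO liver (n = 4), WD WT liver (n = 3), WD N-LKO liver (n = 3) and tumor from WD-fed N-LKO mice (n = 3). N-LKO mice carry a liver-specific knockout of NgBR, the product of Nus1 and a subunit of the cis-prenyltransferase that makes dolichol, the lipid carrier for protein glycosylation. They were made on a C57BL6 background by crossing mice with loxP-flanked NgBR to mice in which the albumin promoter drives Cre. Hepatocytes are targeted in this way, and the study names endothelial, stellate and Kupffer cells as liver cells that express NgBR. Which of the loxP and Cre alleles the WT mice carried is not given in the sources used here. Nor is it given whether a tumor and a liver library came from the same animal. The labels call the samples of a group biological replicates without naming animals, so the p-values measure the spread between these libraries.

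IGF binding proteins are secreted proteins that hold IGF1 and IGF2 in the circulation and in tissues, and proteases that cut them release the growth factors. In liver, insulin signals through IRS1 and IRS2 to the kinase AKT, which keeps FOXO1 out of the nucleus. FOXO1 in turn drives transcription of Igfbp1, Irs2 and genes of gluconeogenesis, so that Igfbp1 and Irs2 are known as transcripts that insulin lowers.

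The total count per library was 9096110 to 12215784 in the 8 HFD libraries and 15494731 to 20200618 in the 9 WD libraries. Nus1, the targeted gene, was at 82.5 to 96.2 CPM (read counts relative to library size, scaled by TMM) in HFD WT liver and at 29.4 to 38 in HFD N-LKO liver. On the WD it was at 88.2 to 98.9 in WT liver, 41.7 to 51.1 in N-LKO liver and 29 to 44 in tumor, so that every knockout library lay below every WT library of its diet. The 8 hepatocyte markers summed to 35567 to 86246 CPM over all groups and none was at 0. In bulk tissue, fewer cells of a type and less RNA per cell cannot be told apart. The HFD and WD tables were made separately, and no level is compared between diets.

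Promoter sequences were examined because Igfbp1 and Irs2 are textbook targets of insulin and FOXO1 through the insulin response element, whose core is CAAAACA. All 10 members had a RefSeq promoter on GRCm38.p6, and the 250 bases before each start were searched on both strands. The core, or its reverse complement TGTTTTG, stood in the windows of Igfbp1, Irs1 and Irs2 and in none of the windows of the other 7 members, against 5.56% of all 32851 promoters. In the sequences below the capitals mark this core and, in Irs1 and Irs2, the E-box CACGTG, which 6.02% of promoters held.
Igfbp1, chr11:7197537-7197786, plus strand: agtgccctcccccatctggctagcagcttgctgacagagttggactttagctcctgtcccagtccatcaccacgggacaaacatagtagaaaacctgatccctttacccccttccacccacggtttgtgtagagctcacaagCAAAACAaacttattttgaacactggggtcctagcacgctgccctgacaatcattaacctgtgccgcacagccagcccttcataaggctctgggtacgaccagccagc
Irs1, chr1:82291440-82291584, minus strand: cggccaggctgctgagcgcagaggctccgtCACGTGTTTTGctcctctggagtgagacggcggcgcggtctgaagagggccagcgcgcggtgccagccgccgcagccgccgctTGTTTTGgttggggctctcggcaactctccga
Irs2, chr8:11008930-11009003, minus strand: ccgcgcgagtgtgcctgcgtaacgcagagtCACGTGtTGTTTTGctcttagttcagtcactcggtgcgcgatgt
Each printed stretch ends at the base before the RefSeq transcription start, from which the distances here are counted. These starts differ from the GENCODE M21 gene positions given below. On the minus strand the Irs2 stretch ends at 11008930 and the GENCODE gene starts at 11008458. For Irs1 these positions are 82291440 and 82291416. The Igfbp1 core began 108 bases before the start. Irs1 held the core at 111 to 105 and at 32 to 26 bases before the start, the first of which overlaps its E-box at 115 to 110. Irs2 held it at 37 to 31 bases before the start, beside an E-box at 44 to 39. Igfbp2 held an E-box, at 142 to 137 bases before the first of its 2 listed starts. The motif GTAAACA, a FoxO site read as TGTTTAC on the other strand, was in no member and in 3.17% of all promoters. These are matches of letters, and no binding was measured.

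Several members are neighbours in the genome (GRCm38, GENCODE M21). Igfbp1 (chr11:7197782-7202546, plus strand) and Igfbp3 (chr11:7206086-7213923, minus strand) lie tail to tail, as do Igfbp2 (chr1:72824503-72852474, plus strand) and Igfbp5 (chr1:72857932-72874884, minus strand). Igfbp4 (chr11:99041244-99054392, plus strand), Igfbp6 (chr15:102144362-102149511, plus strand) and Igfbp7 (chr5:77349240-77408041, minus strand) stand apart from them. The signaling genes are Irs1 (chr1:82233101-82291416, minus strand), Irs2 (chr8:10984681-11008458, minus strand) and Foxo1 (chr3:52268336-52353221, plus strand). Irs1 shares 2822 exon bases with the opposite-strand gene Gm9747 and had fractional counts in 7 of 8 HFD and 9 of 9 WD libraries, so its values are uncertain. Igfbp4 (7 of 8 and 8 of 9 libraries) and Igfbp2 (6 of 8 and 7 of 9) also had fractional counts, the mark of reads divided among places.

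Per kilobase of exon, Igfbp4 and Igfbp2 made up most of the binding protein transcripts in every group. In WD WT liver the mean levels were 330.2 CPM per kb for Igfbp4, 134 for Igfbp2, 46.33 for Igfbp7, 29.84 for Igfbp1, 13.43 for Igfbp3, 3.109 for Igfbp5 and 0.594 for Igfbp6. Foxo1 stood at 10.68, Irs2 at 6.498 and Irs1 at 6.409 on this scale. Igfbp4 came first, followed by Igfbp2, Igfbp7 and Igfbp1, in all 4 liver groups, and Igfbp6 came last everywhere. In tumor Igfbp2 (199) and Igfbp4 (182.3) came first with overlapping ranges, and Igfbp1 (67.44) stood beside Igfbp7 (60.04).

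Igfbp4 supplied a smaller share of the summed binding protein transcripts in tumor than in WD WT liver. Its share of the summed CPM per kb was 61.1%, 59.5% and 57.1% in WD WT liver, 59.2%, 41.4% and 50.9% in WD N-LKO liver, and 52.8%, 30.2% and 27.2% in tumor. All tumor libraries lay below all WT libraries, while tumor and N-LKO liver overlapped. On the HFD the share was 62.7% to 73.9% in WT and 56.7% to 71.6% in N-LKO liver. The tumors differed among themselves in what took the remainder. Igfbp1 made up 18.9%, 22.2% and 3.99% of the sum in tumor replicates 1, 2 and 3, and Igfbp2 made up 10.7% in replicate 1 and 59.4% in replicate 3, with replicate 2 in between. The sum itself was 426.8, 419.0 and 716.8 CPM per kb in these tumors, 490.0, 687.5 and 494.9 in WD WT liver and 415.8 to 439.6 in WD N-LKO liver. These shares were compared as values, with no test.

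**Figure D1:**
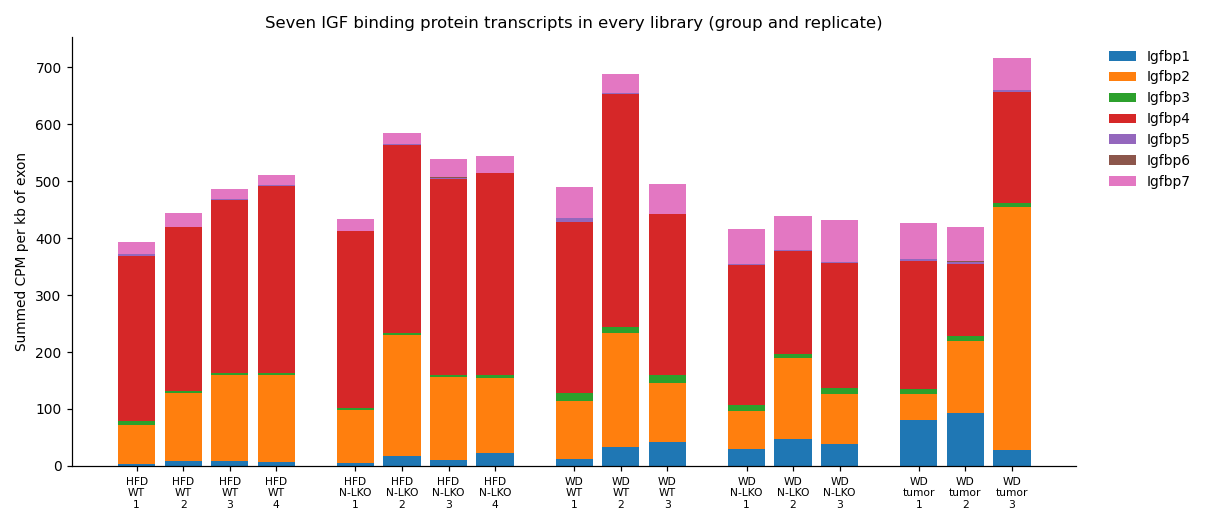
Bars give, for each of the 17 libraries (group and replicate on the x axis), the CPM per kb of exon of the 7 IGF binding proteins stacked on each other (y axis, CPM per kb). Igfbp4 is the tallest segment in the livers, with 41.4% or more of each bar, and the Igfbp2 segment takes 59.4% of the bar of tumor replicate 3.

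The question of each comparison was whether loss of NgBR in hepatocytes, or tumor formation in such livers, went with a change in these transcripts. The first comparison set N-LKO against WT liver on the HFD. None of the 9 members tested passed an adjusted p of 0.05 in edgeR's quasi-likelihood test, against 4.84% of all 13460 genes tested. At an unadjusted p under 0.05 there was 1 of 9, against 22.7% of all genes, and DESeq2 and limma-voom called none. No member had groups that did not overlap, against 14.8% of all genes. Igfbp6 was too low to be tested on this diet. The 7 cholangiocyte markers summed to 20.8 to 38.7 CPM in HFD WT and 55.3 to 101 in HFD N-LKO liver, and the 8 Kupffer cell and macrophage markers to 106 to 145 and 52.6 to 117. Of 2 cholangiocyte markers tested 1 passed, Spp1, which made up most of these sums (14.34 to 33.76 and 45.16 to 89 CPM). Of 7 Kupffer cell and macrophage markers tested 3 passed (Clec4f, Vsig4 and Timd4, all lower), 42.9% against 4.84% of all genes. Their median log2 fold change was -0.75. Of 9 endothelial markers tested 1 passed (Stab2, lower), with a median log2 fold change of -0.43 and sums of 156 to 186 in WT and 115 to 175.7 in N-LKO liver. Of 9 stellate and fibroblast markers tested 1 passed (Colec10, lower), with a median of 0.50 and sums of 159.7 to 279 and 215 to 298. Over 8 fits that left out 1 library, Spp1 and Timd4 kept their calls in all. Colec10 kept its call in 5, Clec4f and Stab2 in 2 and Vsig4 in 1 of these fits. The part of these cells in the values below was not tested.

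Igfbp1, the binding protein that insulin lowers and fasting raises, had the largest fold change of the 9 members tested on the HFD. It was at 6.15, 12.9, 11.9 and 10.3 CPM in HFD WT liver and at 9.11, 25.3, 15.6 and 34.4 in HFD N-LKO liver. N-LKO replicates 2, 3 and 4 lay above all WT libraries, while replicate 1 fell among them. The mean was 10.3 ± 2.98 (SD, n = 4) in WT and 21.1 ± 11.1 (SD, n = 4) in N-LKO liver, a 2.05-fold difference (log2 fold change 1.04, 95% interval 0.27 to 1.80) that missed the threshold at an adjusted p of 0.107. With the replicate number as a block the adjusted p was 0.0448, at a log2 fold change of 0.95.

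The other binding proteins on the HFD differed by less. Igfbp4, the most abundant member, was at 1284, 1269, 1347 and 1454 CPM in WT and 1371, 1462, 1523 and 1565 in N-LKO liver, groups that overlapped (log2 fold change 0.15, 95% interval -0.05 to 0.34, adjusted p = 0.36). Igfbp7, a low-affinity binding protein made by endothelial and stellate cells, was at 25.2, 29, 21.3 and 20.2 in WT and 24.9, 23.2, 39.7 and 36.1 in N-LKO liver (log2 fold change 0.37, 95% interval -0.03 to 0.76, adjusted p = 0.251). Igfbp3, the main carrier of IGFs in serum and made in liver largely by nonparenchymal cells, was at 19.5, 9.65, 8.23 and 7.43 in WT and 10.4, 9.97, 10.8 and 14.8 in N-LKO liver (log2 fold change 0.04, 95% interval -0.55 to 0.63, adjusted p = 0.95). WT replicate 1 held the highest Igfbp3 value and also the highest Igfbp5 value, 17.3 CPM against 3.73 to 7.89 in the other WT livers and 4.64 to 10.3 in N-LKO liver. Igfbp2, a binding protein abundant in fetal liver, was at 126.1 to 284 in WT and 169 to 393 in N-LKO liver. The adjusted p was 0.591 for Igfbp5 and 0.643 for Igfbp2. Igfbp6, which prefers IGF2, had 2, 0, 2 and 1 counts in WT and 7, 2, 5 and 2 in N-LKO liver, and no fold is given at these counts.

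Irs1, Irs2 and Foxo1 did not pass either on the HFD. Irs1, a docking protein for the insulin receptor, was at 9.69, 15.5, 15.6 and 12.5 CPM in WT and 10.2, 11.8, 10.1 and 11.1 in N-LKO liver. Of the 4 WT values, 3 lay above all N-LKO values, with a log2 fold change of -0.30 (95% interval -0.63 to 0.03, adjusted p = 0.265). Irs2, the other docking protein of hepatocytes, was at 12.8, 14.6, 11.9 and 11.7 in WT and 9.28, 10.4, 17.7 and 16.2 in N-LKO liver (log2 fold change 0.06, 95% interval -0.37 to 0.49). Foxo1 was at 62.2, 64.5, 45.6 and 58.8 in WT and 60.7, 74, 50.7 and 57.4 in N-LKO liver (log2 fold change 0.07, 95% interval -0.22 to 0.36). The intervals allow up to about 0.49 for Irs2 and 0.36 for Foxo1 on the log2 scale, and the groups interleaved for both.

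**Figure D2:**
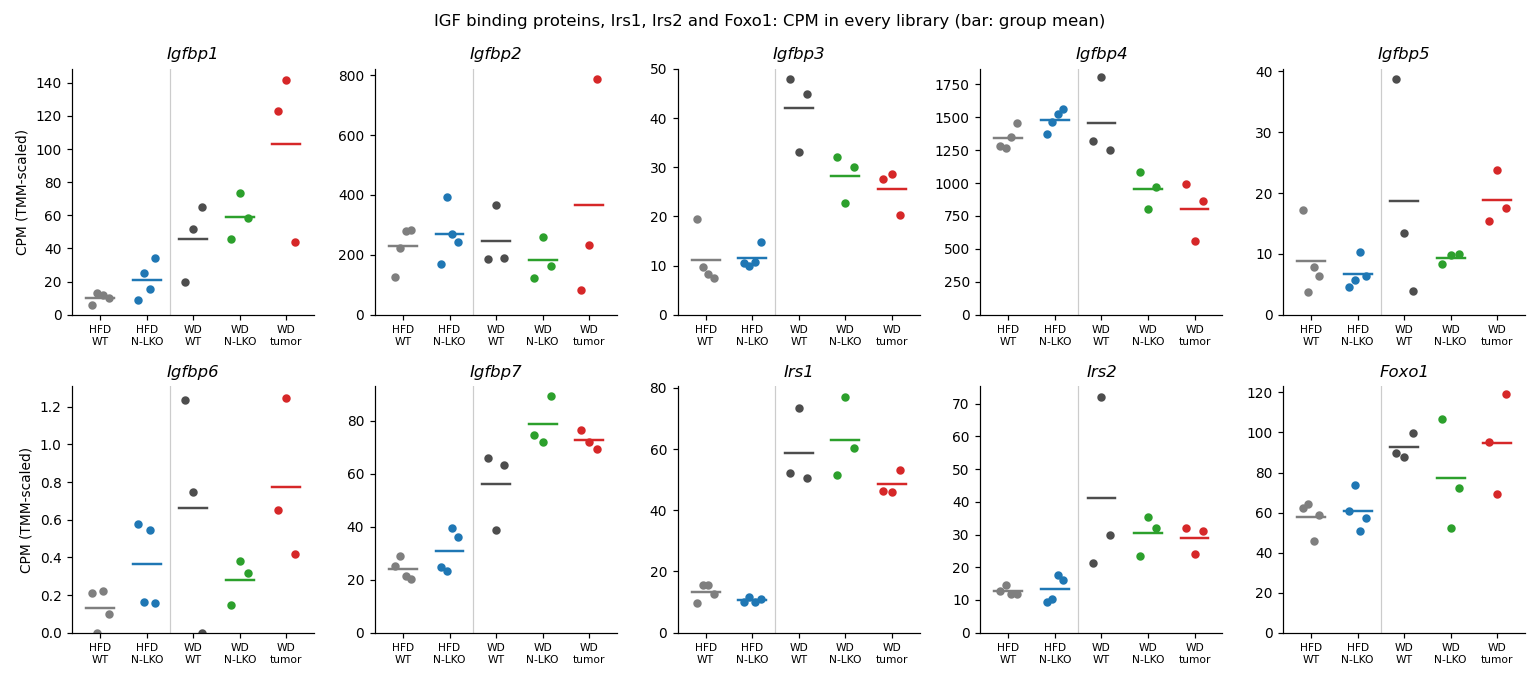
Each point is 1 library, with CPM (TMM-scaled) on the y axis and the 5 groups on the x axis, 1 panel per gene, with a bar at the group mean and a line between the separately made HFD and WD tables. Igfbp3 and Igfbp4 in tumor lie below WD WT liver (Igfbp3 20.3 to 28.6 against 33.2 to 48), Igfbp1 spans 43.6 to 142 in tumor, and 1 tumor has 787 CPM of Igfbp2.

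On the WD, Igfbp3 and Igfbp4 were lower and Igfbp7 higher in every N-LKO than in every WT liver library, but none passed the adjusted threshold. These 3 of 10 members with groups that did not overlap compare with 27.9% of all 17829 genes tested, a share near the background. At an unadjusted p under 0.05 there were the same 3 of 10, against 12.4% of all genes. No gene at all was called here by edgeR (percent called 0), so 0 of 10 members says little, and DESeq2 and limma-voom called no member either. Nus1 itself, 2.02-fold lower, had an adjusted p of 0.151 in edgeR, of 2.62e-05 in DESeq2 and of 0.0307 with only the 2 groups compared.

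Igfbp3 was at 48, 33.2 and 44.8 CPM in WD WT liver and 32.1, 22.6 and 30.2 in WD N-LKO liver, the nearest values of the groups being 33.2 and 32.1. The difference was 1.49-fold lower (log2 fold change -0.57, SE 0.197, 95% interval -1.01 to -0.13, adjusted p = 0.359). Igfbp4 was at 1321, 1807 and 1247 in WT and 1086, 803 and 969 in N-LKO liver, 1.53-fold lower (log2 fold change -0.61, 95% interval -1.16 to -0.07, adjusted p = 0.382). Igfbp7 was at 65.9, 38.9 and 63.3 in WT and 74.7, 72.1 and 89.5 in N-LKO liver, 1.41-fold higher (log2 fold change 0.49, 95% interval 0.06 to 0.92, adjusted p = 0.379). Marker lists of other cells moved beside these genes. The 10 stellate cell and fibroblast markers summed to 481 to 903 CPM in WT and 822 to 996 in N-LKO liver, and the 8 hepatocyte markers to 51728 to 65298 and 37081 to 46296, all 8 with a log2 fold change below 0. The 9 endothelial markers summed to 400.1 to 441 and 391 to 445, and the 7 cholangiocyte markers to 17.8 to 69.9 and 115 to 153. Spp1 alone made up most of the cholangiocyte sums, at 10.31 to 61.5 in WT and 101.3 to 137.5 in N-LKO liver. None of these markers was at 0 in a whole group or passed the test between these groups, and their part in the result was not tested.

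Igfbp1 was at 19.6, 52 and 64.9 CPM in WD WT liver and 45.8, 73.4 and 58.6 in WD N-LKO liver. The WT libraries spread over more than the N-LKO libraries and enclosed most of them (log2 fold change 0.38, 95% interval -0.66 to 1.42, adjusted p = 0.742). Irs2 was at 21.3, 72.1 and 29.9 in WT and 23.5, 35.4 and 32.1 in N-LKO liver, with WT replicate 2 far above the rest (log2 fold change -0.44, 95% interval -1.27 to 0.40). Irs1 was at 52.1, 73.3 and 50.4 in WT and 51.6, 77.1 and 60.3 in N-LKO liver (log2 fold change 0.10, 95% interval -0.31 to 0.52). Foxo1 was at 89.7, 88 and 99.96 in WT and 107, 52.3 and 72.2 in N-LKO liver, where the knockout values lay on both sides of the WT values (log2 fold change -0.26, 95% interval -0.84 to 0.31). Igfbp2 (186, 367 and 189.5 against 122, 259.8 and 162.7) and Igfbp5 (38.7, 13.4 and 3.94 against 8.32, 9.87 and 9.999) overlapped too. Igfbp6 had 18, 11 and 0 counts in WT and 3, 8 and 6 in N-LKO liver.

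The genotype effects of the 2 diets were compared directly in the 14 livers. None of the 9 members tested passed the interaction test, against 1.62% of 15850 genes, and 1 of 9 had an unadjusted p under 0.05, against 20% of all genes. That member was Igfbp4, whose log2 fold change was 0.15 on the HFD and -0.61 on the WD, an interaction of -0.73 (95% interval -1.14 to -0.33, adjusted p = 0.0602). DESeq2 (adjusted p = 0.0046) and limma-voom (adjusted p = 0.0468) put it past the threshold, as did the fit without WD WT replicate 3 (-0.83, adjusted p = 0.043). These were 2 of 9 other alternatives (adjusted p up to 0.206) and 1 of 14 fits that left out 1 library (up to 0.134). DESeq2 called 5.51% of all genes in this comparison, and with the replicate block no gene was called. For Igfbp3 the interaction was -0.59 (adjusted p = 0.388), for Igfbp1 -0.64 (0.57) and for Irs1 0.43 (0.345).

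Between tumor and WD WT liver, Igfbp3 and Igfbp4 passed the test and both were lower in tumor. These 2 of 10 members, both in the lower direction, compare with 14.9% of all genes called in either direction and 6.8% called lower. Groups did not overlap for 3 of 10 members, Igfbp3, Igfbp4 and Igfbp7, against 34.1% of all genes. This comparison shares its WT and tumor libraries with the other WD comparisons.

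Igfbp3 was at 27.7, 28.6 and 20.3 CPM in tumor, all below the 33.2 to 48 of WD WT liver. The means were 25.5 ± 4.57 (SD, n = 3) and 42 ± 7.83 (SD, n = 3), 1.65-fold lower (log2 fold change -0.72, SE 0.198, 95% interval -1.16 to -0.28, adjusted p = 0.0382). The call was kept in 3 of 9 fits that left out 1 library, with an adjusted p of 0.0377 to 0.111, and was lost without WT replicate 1, 2 or 3, tumor replicate 3 or N-LKO liver replicate 1 or 3. The log2 fold change was -0.87 to -0.58 in these fits.

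Igfbp4 was at 994, 559 and 862 CPM in tumor, all below the 1247 to 1807 of WD WT liver. The means were 805 ± 223 (SD, n = 3) and 1458 ± 304 (SD, n = 3), 1.81-fold lower (log2 fold change -0.86, SE 0.245, 95% interval -1.40 to -0.31, adjusted p = 0.0432). The call stayed only without tumor replicate 1 among the 9 fits that left out 1 library (adjusted p 0.0222 to 0.137, log2 fold change -1.04 to -0.68), and was lost without each of the other 8 libraries. Of 10 other alternatives, 6 kept the Igfbp4 call and 7 the Igfbp3 call. With the replicate block the adjusted p was 0.0656 for Igfbp4 and 0.0536 for Igfbp3.

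In these tumors 3 of 8 hepatocyte markers (Hnf4a, Tat and Ttr) and 3 of 10 stellate and fibroblast markers (Reln, Hand2 and Colec10) fell against WT liver, and none of either list rose. These are 37.5% and 30% of the lists, against 14.9% of all genes called in either direction and 6.8% called lower. The summed levels were 35567 to 61520 CPM for the hepatocyte and 531 to 955 for the stellate list in tumor, overlapping WT liver in both. All 8 hepatocyte markers had a log2 fold change below 0, with a median of -0.77 against 0.04 over all genes. The 9 endothelial markers, of which Pecam1 and Cdh5 rose and Clec4g fell, summed to 419.6 to 453 CPM against 400.1 to 441. The 7 cholangiocyte markers summed to 197 to 524 CPM against 17.8 to 69.9, with Sox9, Spp1 and Cldn7 higher. Spp1 alone made up most of these sums, at 347.8, 132.2 and 489.6 CPM in tumor and 61.5, 10.31 and 60 in WT liver. Of the 7 markers 5 had a log2 fold change above 0. The 8 Kupffer cell and macrophage markers summed to 218 to 507 CPM against 432 to 701, with Timd4 and Cd5l lower. The 6 lymphocyte markers summed to 8.04 to 12.2 CPM against 3.05 to 4.53, with Cd4 higher. Over 9 fits that left out 1 library, Sox9 and Spp1 kept their calls in all. Tat kept its call in 2 and Cdh5 and Clec4g in 1, and the other named markers in 3 to 7 of these fits. The part of these cells in the result was not tested.

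Igfbp1 reached 123 and 142 CPM in tumor replicates 1 and 2 and 43.6 in replicate 3, against 19.6, 52 and 64.9 in WD WT liver. Its mean was 2.26-fold higher in tumor (log2 fold change 1.18, 95% interval 0.13 to 2.22) at an adjusted p of 0.115, with groups that overlapped through replicate 3. Without tumor replicate 3 the log2 fold change was 1.54 (adjusted p = 0.0416), and DESeq2 gave an adjusted p of 0.0492. These were 1 of 9 fits that left out 1 library (adjusted p up to 0.305) and 1 of 10 other alternatives (up to 0.193). Igfbp2 was at 84, 232 and 787 CPM in tumor, below, among and above the 186 to 367 of WT liver, so the tumors disagreed among themselves (mean 368 ± 370.4, SD, n = 3). The tumor with the lowest Igfbp1 was the one with the highest Igfbp2. Igfbp7 was at 76.6, 71.9 and 69.2 in tumor, above the 38.9 to 65.9 of WT liver (log2 fold change 0.37, 95% interval -0.05 to 0.80, adjusted p = 0.206).

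Igfbp5, which binds extracellular matrix, was at 15.4, 23.8 and 17.6 CPM in tumor, within the 3.94 to 38.7 of WD WT liver (log2 fold change 0.02, 95% interval -1.26 to 1.31). Igfbp6 had 13, 28 and 8 counts in tumor. Irs1 was at 46.5, 46 and 53 in tumor (log2 fold change -0.27, 95% interval -0.69 to 0.14), and Irs2 at 32.1, 24.1 and 31 (log2 fold change -0.50, 95% interval -1.34 to 0.34). Foxo1 was at 95.2, 69.4 and 119 in tumor, on both sides of the 88 to 99.96 of WT liver (log2 fold change 0.03, 95% interval -0.54 to 0.61). None of these 5 passed, and the intervals still hold differences of more than 0.5 on the log2 scale in at least 1 direction.

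Against the N-LKO liver, no member passed in tumor (0 of 10, against 0.499% of all genes), none had an unadjusted p under 0.05 (18.3% of all genes did), and DESeq2 and limma-voom called none. Igfbp5 and Igfbp6 were higher in every tumor than in every N-LKO liver library, 2 of 10 members against 23.1% of all genes. Igfbp5 was at 15.4 to 23.8 CPM against 8.32 to 9.999, 2.02-fold higher (log2 fold change 1.01, 95% interval -0.30 to 2.32, adjusted p = 0.39). Igfbp6 was at 0.654, 1.25 and 0.417 CPM against 0.147, 0.38 and 0.319 (log2 fold change 1.45, 95% interval -0.52 to 3.41, adjusted p = 0.414). Igfbp3 (log2 fold change -0.15, 95% interval -0.59 to 0.29) and Igfbp4 (-0.24, 95% interval -0.78 to 0.30) overlapped between these groups. For Igfbp1 the log2 fold change was 0.80 (95% interval -0.24 to 1.83), with 2 of 3 tumors above all 3 N-LKO livers. The other members had adjusted p-values of 0.319 (Irs1) to 0.951 (Irs2).

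**Figure D3:**
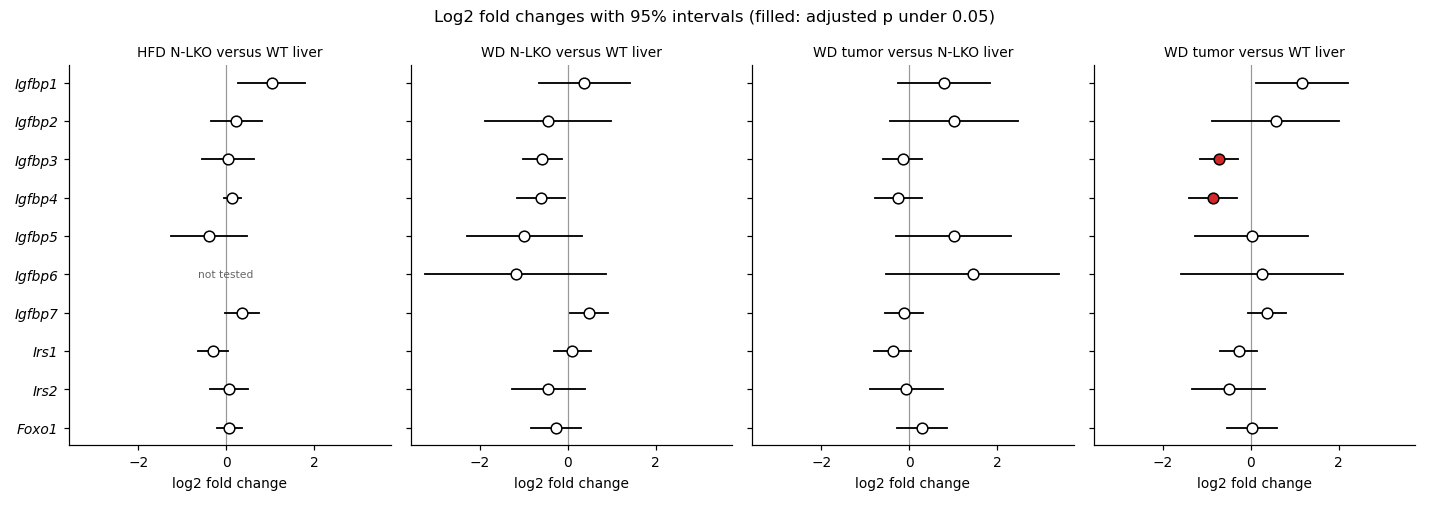
Points are log2 fold changes (x axis) of the 10 members (y axis) in the 4 comparisons, with 95% intervals as lines and filled points where the adjusted p was under 0.05. Filled points are Igfbp3 (-0.72) and Igfbp4 (-0.86) between tumor and WT liver, and the widest intervals belong to Igfbp6, such as -0.52 to 3.41 between tumor and N-LKO liver.

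The wider pathway was read from 88 further genes in 7 lists. The lists were chosen with earlier results of these data known, so their shares are descriptions and not independent support. Between tumor and WT liver 26 of the 80 tested passed (32.5%), 10 higher and 16 lower, against 14.9% of all genes. Between N-LKO and WT liver 4 of 76 passed on the HFD (5.26%, against 4.84% of all genes) and 0 of 80 on the WD, and 0 of 80 passed between tumor and N-LKO liver. Stc1, Grb10, Cebpb and Acaca kept their calls between tumor and WT liver in all 9 fits that left out 1 library. The 26 calls were most exposed to WD WT replicate 2, without which 5 remained, and to tumor replicate 2, without which 12 remained. The calls over all genes moved with them, to 3.07% without WT replicate 2 and 8.2% without tumor replicate 2. With only the 2 groups compared 5 of the 26 remained (Stc1, Grb10, Socs2, Cebpb and Acaca) and 4.12% of all genes were called, and with the replicate block 17 remained and 10.4% of all genes were called. In the 8 other alternatives 23 to 25 of the 26 calls remained. Without tumor replicates 1 and 3, 25 and 19 remained, without WT replicates 1 and 3, 16 and 14. Leaving out an N-LKO liver left 19, 20 and 16 calls (replicates 1 to 3).

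Among ligands and complex partners, Igf1 and Igfals fell in tumor. Igf1, the growth factor that hepatocytes secrete, was at 664, 902 and 672 CPM in WD WT liver, 554, 550.5 and 570.0 in N-LKO liver and 418, 246 and 172 in tumor. Every tumor lay below every N-LKO liver, and every N-LKO liver below every WT liver. Groups stood apart like this in 23.1% of all genes between tumor and N-LKO liver and in 27.9% between N-LKO and WT liver. Igf1 passed in neither of those comparisons. Against WT liver the log2 fold change in tumor was -1.42 (SE 0.288, adjusted p = 0.0155), or adjusted p = 0.0591 without WT replicate 2. Igfals encodes the acid-labile subunit that joins IGF and IGFBP3 in the large serum complex. It was at 43.3, 84.6 and 50.9 CPM in WT liver, 30.5, 23.4 and 23.7 in N-LKO liver and 21.8, 18 and 31.9 in tumor. Its log2 fold change between tumor and WT liver was -1.32 (SE 0.277, adjusted p = 0.0172), or adjusted p = 0.0594 without WT replicate 2. On the HFD Igfals was also lower in N-LKO liver, 35.1 to 41.7 CPM against 43.5 to 63.7 (log2 fold change -0.47, adjusted p = 0.0419), in a call that stayed without WT replicate 2 and was lost without each of the other 7 libraries (adjusted p up to 0.113). Igf2 passed between tumor and WT liver (adjusted p = 0.0479) through a single tumor. It was at 1.81, 333.8 and 0.261 CPM in tumors 1, 2 and 3 and at 0.48, 0.61 and 1.13 in WT liver, and without tumor replicate 2 the log2 fold change was 0.43 (adjusted p = 0.753).

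The receptor genes did not pass. Insr, the insulin receptor, was at 161.6, 169.3, 166.7 and 167.1 CPM in HFD WT liver and 139.6, 141.9, 138.3 and 141.1 in HFD N-LKO liver. The groups stood apart with little spread (log2 fold change -0.24, SE 0.0669), at an adjusted p of 0.059. On this diet 14.8% of all genes had groups that did not overlap.

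Among genes that act on the binding proteins themselves, 3 of 6 tested rose in tumor against WT liver and none fell (50%, against 14.9% of all genes called in either direction). Htra1, a secreted protease that cuts IGF binding proteins, was at 3.29, 1.49 and 2.74 CPM in WT liver, 5.82, 5.36 and 6.97 in N-LKO liver and 3.77, 10.6 and 8.34 in tumor (log2 fold change 1.59, adjusted p = 0.0264, and up to 0.0953 without WT replicate 2 or 3 or tumor replicate 2 or 3). The stanniocalcins Stc1 and Stc2 inhibit PAPP-A, the protease that cuts IGFBP4. Stc1 had 0, 0 and 3 counts in WT liver, 6, 4 and 4 in N-LKO liver and 25, 53 and 46 in tumor, and passed against WT liver at an adjusted p of 0.00784. Stc2 had a log2 fold change of 1.80 (adjusted p = 0.0203, and up to 0.066 without WT replicate 1 or 3). Both were under 3 CPM in every library.

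**Figure D4:**
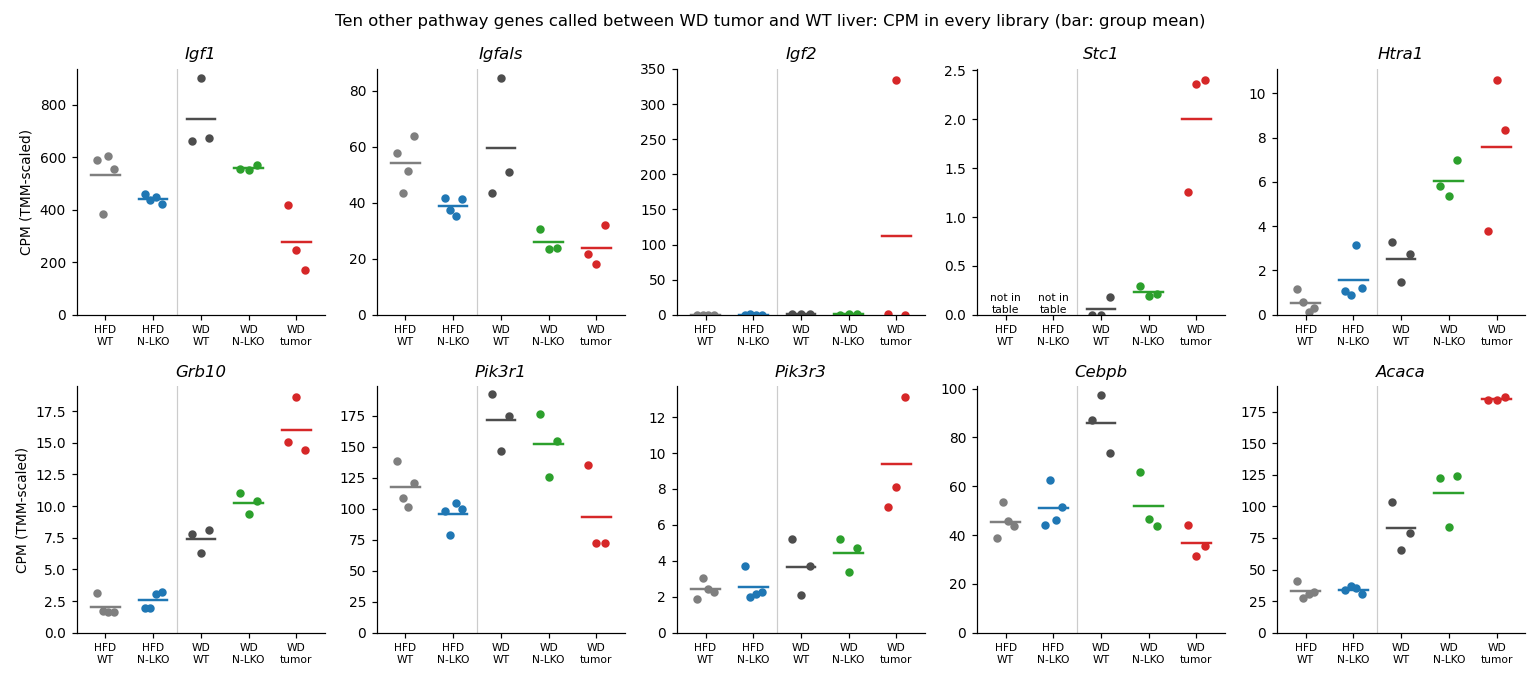
Points are single libraries for 10 of the 26 pathway genes called between tumor and WT liver, with CPM (TMM-scaled) on the y axis, the 5 groups on the x axis and a bar at the group mean. Igf1 runs from 664 to 902 in WD WT liver to 172 to 418 in tumor, and Igf2 is high in 1 tumor only, at 333.8 CPM.

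Below the receptor, 4 of 22 genes passed between tumor and WT liver (18.2%), near the 14.9% of all genes. The regulatory subunits of phosphoinositide 3-kinase did not move together, with Pik3r1 (log2 fold change -0.88, adjusted p = 0.0442) and Pik3r2 (-0.78, 0.0226) lower and Pik3r3 (1.35, 0.0309) higher. Tsc1, a brake on mTORC1, was lower (-0.47, 0.0293). The Pik3r1 call stayed only without tumor replicate 1, and over the 9 fits without 1 library the adjusted p reached 0.115 for Pik3r1, 0.0804 for Pik3r2, 0.0986 for Pik3r3 and 0.0975 for Tsc1, each of which lost its call without WT replicate 2. On the HFD Rictor, which defines mTORC2, was lower in N-LKO liver at 12.5 to 16.3 CPM against 19.9 to 22.8 (log2 fold change -0.65, adjusted p = 0.0125, kept in 8 of 8 fits without 1 library, but 0.0622 with the replicate block and the length and GC offset). Rptor, which defines mTORC1, was lower by less (-0.36, adjusted p = 0.0485, kept without N-LKO replicate 2 and lost without each other library, and lost in 5 of 9 other alternatives, the block among them, with adjusted p up to 0.233). Rictor was at 49.8 to 56.2 CPM in WD WT and 54.3 to 60.8 in WD N-LKO liver, and it was the 1 of 78 pathway genes tested that passed for a difference of the genotype effect between diets (interaction 0.78, SE 0.141, adjusted p = 0.0212, or 0.0591 without WD N-LKO replicate 3). That call was also lost with the replicate block, with the length and GC offset and with both (adjusted p up to 0.235).

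Of 15 inhibitors of insulin signaling tested, 2 rose and 3 fell in tumor against WT liver (33.3%, against 14.9% of all genes called in either direction). Grb10, an adaptor that blocks the insulin and IGF1 receptors, was at 7.83, 6.31 and 8.11 CPM in WT liver, 11.01, 9.40 and 10.4 in N-LKO liver and 15.0, 18.6 and 14.4 in tumor, with no overlap among the 3 groups (log2 fold change 1.11, SE 0.167, adjusted p = 0.00782). It passed neither between N-LKO and WT liver nor between tumor and N-LKO liver, where 27.9% and 23.1% of all genes had groups apart. Inpp4b, a phosphoinositide phosphatase, was higher (1.37, adjusted p = 0.0205). Socs2, a target and inhibitor of growth hormone signaling (-1.12, 0.0298), Ptprf, a receptor phosphatase (-0.59, 0.0354), and Sh2b1, an adaptor that promotes insulin signaling and so acts against the name of the list (-0.76, 0.0176), were lower. Ptprf was also lower in N-LKO liver on the HFD (-0.34, adjusted p = 0.0237, kept only without WT replicate 1 or 3 or N-LKO replicate 2). The tumor call for Ptprf stayed only without tumor replicate 2 or 3. Without WT replicate 2 the calls of Inpp4b, Socs2 and Sh2b1 were lost too, with adjusted p up to 0.0718, 0.0865 and 0.0623 over the 9 fits without 1 library.

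Although Foxo1 itself did not pass, 4 of 9 genes of the FoxO family and its cofactors fell in tumor against WT liver. That is 44.4%, against 14.9% of all genes called in either direction and 6.8% called lower. Cebpb, a transcription factor of gluconeogenic and acute phase genes, was at 87.0, 97.5 and 73.5 CPM in WT liver, 65.6, 46.4 and 43.8 in N-LKO liver and 44.04, 31.4 and 35.3 in tumor (log2 fold change -1.22, SE 0.196, adjusted p = 0.00863). Foxo3 (-0.49, adjusted p = 0.0387), the CREB coactivator Crtc2 (-0.79, 0.0205) and the hepatocyte nuclear factor Hnf4a (-0.75, 0.0266), which is also one of the hepatocyte markers, were the others. Each of these 3 lost its call without WT replicate 2, with adjusted p up to 0.0946, 0.0755 and 0.0726 over the 9 fits without 1 library.

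Listed transcripts known to rise with FoxO1 or fasting fell in tumor where they passed. Of 12 tested, 4 fell against WT liver and none rose (33.3%, against 14.9% of all genes called in either direction). The median log2 fold change was -0.26 against 0.04 over all genes. The list leaves out the members Igfbp1 and Irs2, which FOXO1 also drives. In the same comparison Igfbp1 had a log2 fold change of 1.18 (adjusted p = 0.115) and Irs2 of -0.50 (adjusted p = 0.386). The 4 that fell were Pck1, the gluconeogenic enzyme PEPCK (-1.87, adjusted p = 0.0269), Tat, tyrosine aminotransferase and also a hepatocyte marker (-1.74, 0.0378), Cpt1a of fatty acid oxidation (-0.72, 0.0236) and the transcription factor Klf15 (-0.85, 0.031). All 4 lost the call without WT replicate 2, with adjusted p up to 0.0829 for Pck1, 0.138 for Tat, 0.0719 for Cpt1a and 0.112 for Klf15. Pck1 was at 1678, 5393 and 2073 CPM in WT liver and Tat at 452.3, 1095 and 349, with replicate 2 highest, and without it the log2 fold changes were -1.17 and -1.09. G6pc, glucose-6-phosphatase, was at 97.9 to 304 CPM in WT liver and 115 to 223 in tumor. Of 11 transcripts known to rise with insulin, 3 rose and none fell (27.3%, against the same 14.9%), with a median of 0.63. These were the enzymes of fatty acid synthesis Fasn (1.92, adjusted p = 0.0205), Acaca (1.16, 0.0102) and Elovl6 (0.82, 0.0478, kept only without tumor replicate 1). The Fasn call was lost without WT replicate 2 or 3 (adjusted p up to 0.0847), and without tumor replicate 3, at 819 CPM against 308.5 and 327.7 in the other tumors, its log2 fold change was 1.30. Acaca was at 65.1 to 103 CPM in WT liver, 84 to 124 in N-LKO liver and 183.8 to 186.9 in tumor. Scd1, the most abundant gene of that list, was at 15941 to 25423 in WT liver and 5452 to 17791 in tumor and did not pass. On the HFD no gene of either list passed between N-LKO and WT liver, with medians of 0.07 for the fasting list and 0.08 for the insulin list against -0.01 over all genes.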

How the data were processed

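Total RNA from liver and tumor was sequenced in 17 libraries. The values the authors deposited are estimated counts per gene, made by expectation-maximization in Partek and not scaled, with fractions where reads were divided (69.3% of HFD and 66.2% of WD values were whole). Per the labels, the submitters' processing notes name STAR, Partek and mm9 without versions or roles, while the study's methods name TopHat2 and cuffdiff. Gene starts in the tables equal those of GENCODE M21 on GRCm38 for 18619 of 19151 HFD and 23459 of 24233 WD genes, and positions are given on that build. Libraries are described as made with a small RNA kit after removal of ribosomal RNA, and strand use in counting is not given in the sources used here, so reads of overlapping antisense genes cannot be told apart.

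Counts were rounded to whole numbers, filtered by filterByExpr by group, scaled by TMM and tested with edgeR's quasi-likelihood test (edgeR 4.0.16, limma 3.58.1, R 4.3.3), separately for HFD (13460 genes tested), the 3 WD groups (17829) and the 14 livers of both diets (15850, interaction of genotype and diet only, since diet and table cannot be told apart). p-values were adjusted by the Benjamini-Hochberg method over all genes tested, with a threshold of 0.05. The common biological coefficient of variation was 0.149 for HFD, 0.243 for WD and 0.163 for the 14 livers. Scripts were tested on simulated data. Alternatives were DESeq2 1.42.0, limma-voom, other scalings, no filter, a length and GC offset (known for 98.2%, 97.8% and 98% of tested genes in the HFD, WD and interaction fits), a replicate block, only the 2 groups compared and leaving out each library. The authors' own test on aligned reads was not run. Promoters are RefSeq sequences.

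The members, gene lists and tests were chosen with earlier results of these data known. All 10 members were named in every comparison. Other pathway genes were named where they passed in any comparison, with a few of the most abundant that did not. Per-kilobase levels divide CPM by the summed exon length of the gene. A fraction was counted when a value lay more than 0.01 from a whole number.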

Additional observations from a re-analysis of the deposited data

Results flagged for a closer look

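Igfbp3 was at 14.8 CPM in HFD N-LKO liver replicate 4, far from the 10.4, 9.97 and 10.8 CPM of the other 3 libraries of the group. The gap to the nearest of them was 0.834 of the range of the group, and 1 of 20 pairs of a member and a group of 4 was marked in this way, where chance marks about 1 in 20. Without this library the log2 fold change of Igfbp3 between N-LKO and WT liver on the HFD was -0.11 in place of 0.04, with no call in either fit.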

How the results depend on the processing

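Among the binding proteins and signaling genes, calls depended on the setting as follows. The number of members called between tumor and WT liver was 2, and it was 0 with upper-quartile scaling, 0 with only the 2 groups compared, 3 with DESeq2 (Igfbp1, Igfbp3 and Igfbp4), and 0 to 2 when 1 library was left out. For N-LKO against WT liver it stayed at 0 on the WD in every alternative run, as did tumor against N-LKO liver. For the interaction of genotype and diet the number was 0, but 1 (Igfbp4) with DESeq2 and 1 with limma-voom, and 0 to 1 when 1 library was left out. The cause was not tested. Between tumor and WT liver the split of all calls was 1440 higher and 1213 lower, 1164 and 1886 with the length and GC offset, which moved the median log2 fold change of all genes from 0.04 to -0.08, and 1666 and 939 with upper-quartile scaling.

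The main fits did not pair libraries by replicate number, since the labels do not say that animals of 2 groups share it. Same-numbered libraries correlated at -0.0759 to 0.107 over 4 HFD pairs and at -0.124 to 0.101 over 9 WD pairs. Different-numbered ones correlated at -0.247 to 0.14 and -0.133 to 0.148. The authors' library names do not all match these numbers. By the names, WD N-LKO liver replicate 1 goes with tumor replicate 1 (r = 0.101). N-LKO liver replicate 3 goes with tumor replicate 2 (r = 0.0792). These were the highest values between N-LKO liver and tumor. Whether libraries share an animal was not tested, and the block uses the label numbers. With the replicate block the number of members called was 1 on the HFD (Igfbp1, in place of 0) and 0 between tumor and WT liver (in place of 2), or 1 (Igfbp3) with the block and the length and GC offset.

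Signs turned only for members near 0 or with 1 distant library, with no call on either side. On the HFD the log2 fold change of Irs2 was -0.005 with limma-voom and that of Igfbp3 -0.011 with the length and GC offset. Between tumor and N-LKO liver Irs2 was at 0.008 with the block. Between tumor and WT liver Igfbp5 was at -0.011 with no filter and -0.059 with the length and GC offset, and Foxo1 at -0.008 with no filter, -0.092 with the length and GC offset, -0.005 with the block and -0.129 with both.

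When 1 library was left out, signs turned for these ranges. On the HFD they were -0.007 to 0.40 for Igfbp2, -0.11 to 0.44 for Igfbp3, -0.66 to 0.16 for Igfbp5, -0.087 to 0.20 for Irs2 and -0.038 to 0.16 for Foxo1. Between WD N-LKO and WT liver they were -1.47 to 0.12 for Igfbp5, -0.068 to 0.29 for Irs1 and -0.75 to 0.24 for Irs2. Between tumor and N-LKO liver they were -0.20 to 1.49 for Igfbp2 and -0.22 to 0.06 for Irs2. Between tumor and WT liver they were -0.65 to 1.04 for Igfbp2, -0.47 to 1.13 for Igfbp5, -0.35 to 1.09 for Igfbp6, -0.82 to 0.18 for Irs2 and -0.17 to 0.18 for Foxo1. For the interaction they were -1.12 to 0.56 for Igfbp5, -0.078 to 0.27 for Igfbp7 and -0.78 to 0.19 for Irs2. Of 468 values with 1 library left out, 424 kept direction and side of the threshold, 28 turned, 14 lost and 2 gained a call. Of 457 under other alternatives 437 were kept, 9 turned, 7 lost and 4 gained. Only Igfbp3 and Igfbp4 between tumor and WT liver had a call to lose, so most values could only stay uncalled. Igfbp3 kept its call in 3 and Igfbp4 in 1 of 9 fits without 1 library, and in 7 and 6 of 10 other alternatives. Depth limits Igfbp6, with 0 to 28 counts per library, and groups of 3 or 4 limit every other member.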

Other observations

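The genes whose levels ran most like a member, among 11543 genes compared, are given as descriptions over the 8 HFD and 9 WD libraries, which share depth, groups and tables. Igfbp4 ran most like Mt1, a metallothionein (r = 0.97 on the HFD and 0.91 on the WD), followed by Nfix and Apoe. Igfbp3 ran most like Sod3, the extracellular superoxide dismutase (0.78 and 0.96), then Colec11 and Cyp46a1. For Igfbp7 the nearest were Myof (0.87 and 0.94), Plau and Bgn, a matrix proteoglycan. Foxo1 ran most like N4bp2l1 (0.94 and 0.92), Lpin1 and Il6ra. The nearest genes were Slc9a9, Prdx4 and Btg1 for Igfbp1, Wsb2, Unk and Slc25a22 for Igfbp2, Elp2, Nme4 and Eny2 for Igfbp5, Selenoi, Mef2d and Zfp623 for Irs1, and Fh1, Fbxl8 and Slc25a25 for Irs2. Igfbp6 was too low for this comparison.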
